A study of Mus musculus with 16 samples.

Results

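The transcripts described here are those of 9 transcription factors of the myeloid lineage, namely Cebpa, Cebpb, Cebpd and Cebpe of the C/EBP family, the ETS factor gene Spi1 (PU.1), Runx1, Gfi1, Irf8 and Klf4. They were taken by name, each with its 3′ UTR interval of highest mean read density, and make up 9 of the 21177 genes measured. All 9 had a rate above 0 in at least 12 of the 16 libraries and so were among the 7411 genes tested. The libraries came from mouse leukemia cells of C57BL/6 bone marrow, either YBX1-/- or WT, and cells of both genotypes were labelled for 24 h with 50 µM 4-thiouridine (4sU) before a chase with 10 mM uridine. RNA was taken at 0, 0.5, 1, 3, 6, 12, 18 and 24 h of the chase, with 1 library per genotype and time point and no replicate. The labels do not say how the leukemia was made, how YBX1 was deleted or whether animals were pooled.

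4sU is built into new RNA in place of uridine and is read after chemical conversion as T-to-C changes, an approach called SLAM-seq. The T-to-C rate of an interval, a share from 0 to 100%, therefore tracks how much of a transcript pool still carries label. It falls when labelled RNA decays and when unlabelled RNA dilutes it, and these could not be told apart. YBX1 is an RNA-binding protein of the cold-shock domain family, and the title of the series asks how it acts on mRNA stability in myeloid leukemia.

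C/EBPα and PU.1 are known as the pair of factors that commit progenitors to the myeloid lineage. PU.1 opens the enhancers of myeloid genes, C/EBPα directs granulocyte progenitors and C/EBPε their late maturation, while C/EBPβ and C/EBPδ serve emergency and inflammatory granulopoiesis. RUNX1 acts upstream in stem and progenitor cells and is often mutated in myeloid leukemia. GFI1 is a repressor that favours neutrophils, and IRF8 and KLF4 favour monocytes. Messages of such regulators are known for short lives, often tied to AU-rich elements, microRNA sites or m6A marks in the 3′ UTR.

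Every one of the 9 intervals began on the base after an annotated stop codon, so each lay in the 3′ UTR. On GRCm38 they were chr7:35120374-35121928 (+) for Cebpa, chr2:167689913-167690418 (+) for Cebpb, chr16:15888132-15891031 (+) for Cebpd and chr14:54710360-54710538 (-) for Cebpe. Spi1 lay at chr2:91115395-91115756 (+), Runx1 at chr16:92601466-92605654 (-), Gfi1 at chr5:107716657-107717739 (-), Irf8 at chr8:120755176-120756694 (+) and Klf4 at chr4:55527143-55528124 (-). Their lengths ran from 179 bases in Cebpe and 362 in Spi1 to 2900 in Cebpd and 4189 in Runx1, against a median of 1170 bases over tested genes. T made up 19.0% of the bases in Cebpe and 19.3% in Spi1, the lowest of the 9, and 31.9% in Runx1, the highest, against a median of 29.3%.

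Sites that are known to set the life of such messages were read from the annotated transcripts and are shown because they differ among the 9. The seed match of miR-155-5p, a microRNA known to act on PU.1 and C/EBPβ in myeloid cells, was looked for as AGCATTA on the transcript strand. It was present in 2 of the 9 intervals, Cebpb and Spi1, and in 9.42% of 7396 tested intervals. Among tested intervals within 20% of the same length, 3.28% held it for Cebpb and 1.54% for Spi1. The motif was picked after the data were seen and these 2 genes are known targets, so the count and shares are description only. The mature microRNA (RefSeq, GRCm38.p6) is printed with its seed, bases 2 to 8, in capitals, and the sites with their match in capitals.
mmu-miR-155-5p: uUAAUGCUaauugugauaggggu
Cebpb, chr2:167690357-167690381 (+): tccgtttcgAGCATTAaagtgaaga
Spi1, chr2:91115428-91115452 (+): gccggccatAGCATTAacccgtcgc

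The core of an AU-rich element, ATTTA, occurred in 5 of the 9 intervals and in 70.0% of tested intervals. Runx1 held 14 copies, Cebpd 7, Gfi1 and Irf8 2 each and Klf4 1, while Cebpa, Cebpb, Cebpe and Spi1 held none. At least as many were held by 8.97% of tested intervals of similar length for Runx1 and 31.6% for Cebpd. The share was 50.1% for Gfi1, 62.2% for Irf8 and 72.5% for Klf4. The longer form TATTTAT, which contains ATTTA, was in 4 of the 9 and in 29.2% of tested intervals. By similar length, the share with at least as many was 9.48% for Runx1, 25% for Gfi1, 31.9% for Irf8 and 50.5% for Cebpd. TATTTAT is shown in capitals for the genes with the motif, for Runx1 at the first of its 3 sites after the stop codon.
Cebpd, chr16:15889230-15889254 (+): ttggacattTATTTATtgtaacaga
Runx1, chr16:92605100-92605124 (-): atccctagaTATTTATgtatcttga
Gfi1, chr5:107716687-107716711 (-): gcataatcaTATTTATtagaatgtt
Irf8, chr8:120756615-120756639 (+): gtgtccaaaTATTTATttttgtatt

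The motif GGACT, a core sequence at which m6A is known to be placed and which bears on the m6A question in the title of the series, was present in 7 of the 9 intervals and in 64.2% of tested intervals. Counted on the transcript strand, there were 6 copies in Runx1, 5 in Cebpd, 4 each in Cebpa and Gfi1, 2 each in Cebpb and Spi1, 1 in Klf4 and none in Cebpe or Irf8. For Gfi1 3.39% of tested intervals of similar length held at least as many, for Spi1 7.19% and for Cebpa 7.96%. The share was 13.1% for Cebpd, 13.9% for Cebpb, 20.3% for Runx1 and 60.8% for Klf4. CATC, a short sequence that cold-shock proteins are known to favour, was in 5 of the 9 and in 87.6% of tested intervals. There were 12 copies in Runx1, 7 in Irf8, 6 in Gfi1, 5 in Cebpa and 3 in Cebpd. At least as many were held by 67% of tested intervals of similar length for Runx1, 27.4% for Irf8, 20.5% for Gfi1, 58.7% for Cebpa and 98.7% for Cebpd. No methylation or binding was measured, so these are matches of letters. The GGACT sites of the short Cebpb and Spi1 UTRs are shown, with the motif in capitals.
Cebpb first, chr2:167690095-167690117 (+): cgggtttcgGGACTtgatgcaat
Cebpb second, chr2:167690143-167690165 (+): gtggacacgGGACTgacgcaaca
Spi1 first, chr2:91115484-91115506 (+): gccgaggcaGGACTgggggcccg
Spi1 second, chr2:91115552-91115574 (+): ctcccaccaGGACTctagcccgc

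Read counts were given only as the authors' mean CPM over the libraries, with no value per genotype. Per kilobase of interval, Spi1 had the highest value of the 9 at 111 CPM per kb, followed by Cebpe at 70.3 and Cebpb at 58.7. These genes also have the shortest intervals, of 362, 179 and 506 bases. Not scaled by length, the order was another, with 40 CPM for Spi1, 33 for Cebpd and 29.7 for Cebpb. Next came Cebpa at 17.1 CPM, Irf8 at 17, Runx1 at 16.7, Cebpe at 12.6, Gfi1 at 9.19 and Klf4 at 5.26. Cebpd had 11.4 CPM per kb, Irf8 11.2, Cebpa 11, Gfi1 8.48, Klf4 5.36 and Runx1 3.99, against a median of 10.1 over tested genes. All 10 leukocyte and myeloid markers lay above 1 CPM (lowest 33.6 CPM for Mpo, highest 7380 for Lyz2), as the label of the cells says. Of 5 genes each, 1 erythroid, 1 lymphoid and 1 stromal marker passed 1 CPM, and 4 megakaryocyte markers did, led by Pf4 at 39.8 CPM. In bulk RNA a low share of other cells and a low level per cell cannot be told apart.

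Some features of whole libraries touch the values below. The median rate of tested genes at 0, 3 and 6 h was 33.3%, 18.2% and 4.76% in YBX1-/- cells and 42.9%, 19.9% and 10.2% in WT cells. From 12 h on it was at most 1.75% in YBX1-/- and 2.17% in WT, so that late values are close to the floor. The YBX1-/- 0 h library stood apart from the others of 0 to 1 h, with 3.64% of tested genes at a rate of exactly 0, against 0.0945% in the WT 0 h library. At 6 h, a time point used much below, this share was 4.16% in YBX1-/- and 0.999% in WT. How many reads stand behind a rate cannot be known, and a rate of 0 can mean no converted reads or no reads. Ybx1 itself had 72% at 0 h and 3.08% at 24 h in YBX1-/- and 55.2% and 5.08% in WT. A rate is not an amount, so this does not check the genotype.

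**Figure D1:**
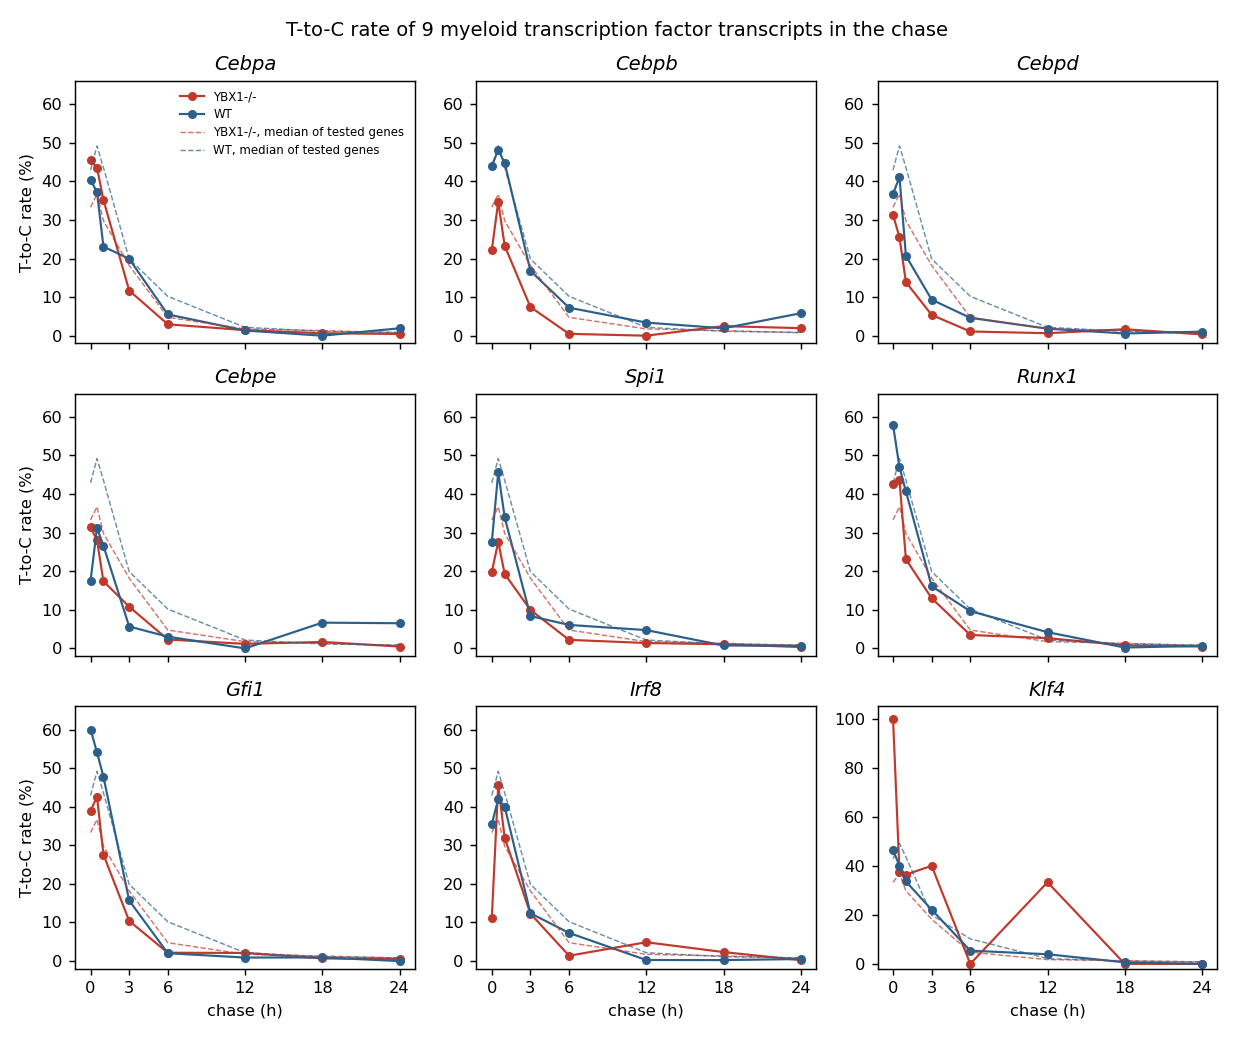
T-to-C rate (%, linear axis, wider for Klf4) of the 9 transcripts against hours of chase; each point is 1 library, red for YBX1-/- and blue for WT, and dashed lines are the library medians of 7411 tested genes. At 6 h all curves lie below the dashed lines in both genotypes, where 5 of the 9 lay already at 0 h in each. Klf4 in YBX1-/- jumps between 0% and 100%.

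Among the C/EBP genes, Cebpa carried more label in YBX1-/- cells than in WT up to 1 h and less at 3 and 6 h. Its rates at 0, 0.5, 1, 3, 6, 12, 18 and 24 h were 45.5%, 43.5%, 35.2%, 11.7%, 2.95%, 1.44%, 0.639% and 0.446% in YBX1-/-. In WT they were 40.4%, 37.2%, 23.1%, 19.9%, 5.51%, 1.35%, 0% and 1.92% at the same times. Late values were near the floor in both genotypes.

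Cebpb, which encodes the C/EBP protein of emergency granulopoiesis, was lower in YBX1-/- at 7 of 8 time points. Its rates in order of time were 22.2%, 34.7%, 23.3%, 7.43%, 0.481%, 0%, 2.48% and 1.96% in YBX1-/-. In WT they were 44.1%, 48.1%, 44.8%, 16.8%, 7.26%, 3.40%, 1.92% and 5.82%. From 0 to 6 h no YBX1-/- rate reached the WT rate of the same time. The library median was also lower in YBX1-/- at each of these times. Relative to the library medians, the Cebpb difference was -0.05 log2 at 0.5 h and -2.58 at 6 h. At 6 h YBX1-/- stood at 4.74 on a scale of percentiles among tested genes of its library, against 27.5 in WT.

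Cebpd, its inflammatory relative, followed the same order of genotypes at 7 of 8 time points. Its rates were 31.3%, 25.5%, 13.9%, 5.38%, 1.09%, 0.643%, 1.68% and 0.330% in YBX1-/- cells. WT cells had 36.8%, 41.1%, 20.7%, 9.34%, 4.63%, 1.82%, 0.570% and 1.05%. The drop between 0.5 and 1 h was steep in both.

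Cebpe, the factor of late granulocyte maturation, lost label early in both genotypes but had late WT values well above the library median. Its rates were 31.4%, 28.0%, 17.4%, 10.8%, 2.30%, 1.17%, 1.67% and 0.473% in YBX1-/-. In WT they were 17.5%, 31.2%, 26.6%, 5.67%, 3.03%, 0%, 6.67% and 6.52%. The WT rates of 18 and 24 h exceeded that of 6 h, which a falling line does not describe. The interval of 179 bases with 34 Ts is the shortest of the 9.

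Spi1, the message of PU.1, carried less label in YBX1-/- at 6 of 8 time points. It had 19.8%, 27.6%, 19.3%, 9.97%, 2.21%, 1.39%, 1.07% and 0.344% in YBX1-/-, against 27.5%, 45.6%, 34.0%, 8.38%, 6.08%, 4.74%, 0.752% and 0.680% in WT. Runx1 was lower in YBX1-/- at 7 of 8, as was the library median itself. It had 42.6%, 43.6%, 23.1%, 13.0%, 3.48%, 2.65%, 0.806% and 0.472% in YBX1-/-, against 57.9%, 46.9%, 40.7%, 16.1%, 9.64%, 4.2%, 0.216% and 0.676% in WT. Runx1 at 18 h was higher in YBX1-/-, by 1.33 log2 relative to the library medians, at rates under 1% in both genotypes.

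Gfi1, the neutrophil repressor, started as the most labelled of the 9 in WT and had the steepest slope of the 9 there over 0 to 6 h. It had 38.9%, 42.6%, 27.6%, 10.4%, 2.16%, 2.11%, 0.680% and 0.565% in YBX1-/-, against 60%, 54.1%, 47.8%, 15.7%, 2.04%, 0.909%, 0.948% and 0% in WT. Its YBX1-/- rates were lower up to 3 h and close to WT at 6 h.

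Of the monocyte factors, Irf8 had nearly equal rates in both genotypes at 0.5 and 3 h. Among tested genes of the same library, however, Irf8 stood at percentile 84.6 in YBX1-/- and 27.9 in WT at 0.5 h. At 3 h its percentiles were 26.2 and 26. It had 11.1%, 45.7%, 31.9%, 12.3%, 1.39%, 4.88%, 2.33% and 0.240% in YBX1-/-, against 35.5%, 42%, 40%, 12.4%, 7.30%, 0.272%, 0.258% and 0.526% in WT. The low first YBX1-/- value was read in the library that stood apart, but the shorter Irf8 intervals had 50.0% in that same library. The cause of the low value was not tested. Klf4 had 100%, 37.5%, 36.4%, 40%, 0%, 33.3%, 0% and 0% in YBX1-/-, against 46.3%, 40.1%, 33.6%, 22.1%, 5.41%, 3.92%, 0.621% and 0% in WT. Its mean of 5.26 CPM was the lowest of the 9 and its rate was above 0 in 12 libraries, the minimum for the test, so the YBX1-/- series does not give a usable curve.

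Cebpa, Gfi1, Irf8 and Runx1 had other annotated 3′ UTR intervals. The second Gfi1 interval (1074 bases) lies within the first and had the same rates. The second Cebpa interval (1430 bases) lies within the first and had nearly the same rates. The shorter Irf8 intervals, of 406 and 229 bases at 3.19 and 2.40 CPM, had 50.0% at 0 h in YBX1-/- where the long one had 11.1%, and 0% at 6 h. Runx1 also had intervals of 1999, 257 and 524 bases with 2.73 CPM or less and a rate above 0 in 11, 7 and 4 libraries.

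Rates at 6 h were low for all 9 in both genotypes, with Klf4 resting on the erratic YBX1-/- series described above. Already at 0 h, 5 of the 9 were below the library median in each genotype. At 6 h each of the 9 was below the library median in YBX1-/- and in WT, which was true of 36.4% of tested genes; at both 3 and 6 h it held for 7 of the 9 and 22.5% of tested genes, with Cebpa and Klf4 as the exceptions. Relative to the mean rate of 0 to 1 h, the label left at 6 h was 7.13% for Cebpa, 1.80% for Cebpb, 4.63% for Cebpd, 9% for Cebpe, 9.95% for Spi1, 9.56% for Runx1, 5.95% for Gfi1 and 4.70% for Irf8 in YBX1-/-. In WT it was 16.4%, 15.9%, 14.1%, 12.1%, 17.0%, 19.9%, 3.78% and 18.6% in the same order, and 13.5% for Klf4, which was at 0% in YBX1-/-. Gfi1 was the one gene of the 9 with more left in YBX1-/-. The medians over tested genes were 14.7% in YBX1-/- and 22.8% in WT, so that typical transcripts differed between the genotypes in the same direction.

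Slopes of the log2 rate over 0 to 6 h gave the same picture. The median slope of the 9 was -0.68 log2 per h in YBX1-/- and -0.48 in WT, against -0.47 and -0.39 over tested genes. In both genotypes each of the 9 was steeper than the median of tested genes, which held for 37.1% of them. With the 6 h time point left out 6 of the 9 met this (33.0% of tested genes), and without the YBX1-/- 0 h library it was 9. In WT Gfi1 stood out from the other 8, with -0.82 (SE 0.075), and 2% of tested genes were steeper; the others ranged from -0.54 (SE 0.14) for Cebpe to -0.44 (SE 0.064) for Runx1. In YBX1-/- Cebpb had -0.95 (SE 0.11), Cebpd -0.78 (SE 0.12) and Gfi1 -0.72 (SE 0.075), while the value of -1.50 (SE 0.23) for Klf4 rests on its rates of 100% and 0%. The SE of a gene is shared by both genotypes, so that of Klf4 in WT also carries the scatter of its YBX1-/- series. The fall over this window passed the threshold for 9 of 9 in YBX1-/- and 8 of 9 in WT (limma, Benjamini-Hochberg adjusted p under 0.05; Klf4 in WT had adjusted p = 0.0719), against 82.4% and 80.3% of tested genes, and so says little about these 9.

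**Figure D2:**
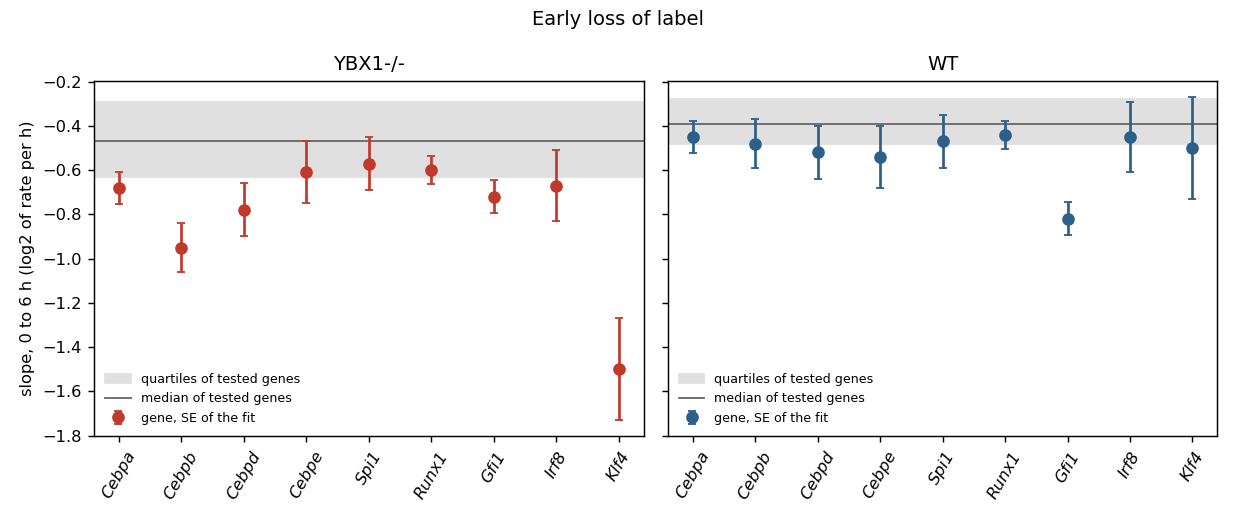
Slope of the log2 rate over 0 to 6 h (log2 per h, more negative is faster) for the 9 transcripts in YBX1-/- (left) and WT (right). Bars are the SE of the limma fit, shared by both genotypes, the line is the median and the grey band the quartiles of tested genes. All points lie below the line, with medians of -0.68 in YBX1-/- and -0.48 in WT.

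Over the full 24 h a straight line fell in 9 of the 9 in YBX1-/- and in 8 of 9 in WT (limma, adjusted p under 0.05), against 92.6% and 94.7% of tested genes. Cebpe in WT was the exception (-0.11 log2 per h, SE 0.077, adjusted p = 0.177), and over 0 to 6 h it did pass with -0.54 (adjusted p = 0.00549). Without the 24 h time point it also passed (-0.24, adjusted p = 0.0488). Cebpb passed narrowly, with -0.18 (SE 0.076, adjusted p = 0.0332) in YBX1-/- and -0.16 (SE 0.076, adjusted p = 0.0488) in WT. Without the YBX1-/- 0 h library it missed the threshold in YBX1-/- (adjusted p = 0.0757) and in WT (adjusted p = 0.0519). Besides the fits on values minus the library median, it missed in 6 alternatives in YBX1-/- and in 9 in WT, so its call over 24 h is not firm. Cebpe in YBX1-/- missed with a pseudocount of 0.01 (adjusted p = 0.0509). Klf4 missed over 0 to 12 h in YBX1-/- (adjusted p = 0.318) and in WT (adjusted p = 0.203), where its fit shares the spread of the erratic YBX1-/- series. These long lines were shallower than the early ones. Library medians from 12 h on lay near the floor, but the reason for the shallower lines was not tested.

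Half-lives of the label depended strongly on the curve fitted. With an exponential curve and a constant floor, the half-life in YBX1-/- was shortest for Cebpd, at 0.981 h (0.666 to 1.19 when single time points were dropped), followed by Runx1 at 1.49 h (0.934 to 1.76), Cebpe at 1.55 h (1.28 to 1.78), Gfi1 at 1.63 h (1.02 to 1.85) and Cebpa at 1.70 h (1.31 to 1.98). Cebpb had 1.92 h (0.936 to 2.27), Spi1 2.42 h (1.47 to 2.85) and Irf8 3.19 h (1.08 to 4.81). For Klf4 the range of 0.265 to 6.89 h shows that its YBX1-/- series fixes no half-life. Neighbours in this order overlapped in their ranges, while Cebpd lay below the ranges of Cebpe, Cebpa and Spi1.

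In WT the order began with Cebpd at 1.45 h (0.539 to 1.71), Gfi1 at 1.69 h (1.42 to 1.89) and Runx1 at 1.73 h (1.65 to 2.11). Cebpe had 1.92 h (0.914 to 2.53), Cebpb 2.15 h (1.53 to 2.57), Cebpa 2.22 h (1.48 to 2.47), Spi1 2.26 h (0.970 to 3.36), Klf4 2.38 h (1.97 to 2.76) and Irf8 2.40 h (1.64 to 2.96). The curve of library medians had 2.66 h (2.11 to 3.17) in YBX1-/- and 2.76 h (2.01 to 3.11) in WT. For each of the 9 the ranges of YBX1-/- and WT overlapped. The half-lives from the straight log2 lines over 24 h were longer and in another order, so neither the values nor the order is fixed by these data. By those lines Cebpd had 4.45 h in YBX1-/- and 4.28 h in WT. In YBX1-/- this was longer than Cebpa at 3.59 h, Runx1 at 3.85 h and Gfi1 at 3.92 h. In WT it was longer than Gfi1 at 2.78 h, Irf8 at 3.25 h and Runx1 at 3.39 h. The longest by those lines were Cebpb in YBX1-/- at 5.54 h and Cebpe in WT at 9.08 h.

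The loss of label did not differ detectably between the genotypes for any of the 9 over 24 h. The decay rate difference, YBX1-/- minus WT in log2 per h on values relative to the library median, passed the threshold for 0 of 9 (limma; 0 of 9 also at an unadjusted p under 0.05, against 929 tested genes). Of all tested genes 0.0675% passed as faster and 0.0405% as slower in YBX1-/-. Cebpe had -0.14 (SE 0.077, adjusted p = 0.529), Gfi1 0.08 (SE 0.048, adjusted p = 0.529) and Irf8 0.06 (SE 0.075, adjusted p = 0.796). Cebpa, Cebpb, Cebpd, Spi1, Runx1 and Klf4 lay between -0.05 and 0.02, with SE from 0.03 for Runx1 to 0.10 for Klf4. The median of the 9 was -0.02, against 0.00 over tested genes.

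The decay rate difference depended on the window for several of the 9. Klf4, whose YBX1-/- series is erratic, had 0.07 log2 per h over 0 to 12 h (adjusted p = 0.878) and -0.90 over 0 to 6 h (SE 0.23, adjusted p = 0.203). For Cebpb over 0 to 12 h the difference was -0.39 log2 per h and passed (adjusted p = 0.0467), that is, faster loss in YBX1-/-, as it did for 1.79% of tested genes. The YBX1-/- rate at 12 h was 0%. Over 0 to 6 h the value was -0.38 (SE 0.12, adjusted p = 0.251) and with the 12 h time point left out of the full series it was -0.01 (adjusted p = 0.932). For Cebpe the same omission gave -0.17 and a pass (adjusted p = 0.0393), as for 1.17% of tested genes, but over 0 to 12 h the sign turned to 0.27 (adjusted p = 0.151). Without the 24 h time point it was -0.04 (adjusted p = 0.857).

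The labelling level, the mean difference over all time points on the same relative scale, passed for 0 of 9 (limma), and 0% of tested genes passed as lower and 0% as higher in YBX1-/-. At an unadjusted p under 0.05 it was 1 of the 9, Cebpb, and 415 tested genes. Cebpb had the largest difference of the 9, at -1.34 log2 (SE 0.54, unadjusted p = 0.0325, adjusted p = 0.779), lower in YBX1-/- relative to the library median at 7 of 8 time points. Its value was between -1.78 and -0.84 over the alternatives tried, with adjusted p from 0.305 to 0.960, and was -0.84 without the 12 h time point, where YBX1-/- was at 0%. Without the YBX1-/- 0 h library it was -1.45. Cebpd had -0.36 (SE 0.39) and Spi1 -0.31 (SE 0.31), each relatively lower at 6 of 8. Irf8 had 0.53 (SE 0.63), Gfi1 0.49 (SE 0.45), Cebpa 0.40 (SE 0.46), Cebpe 0.20 (SE 0.72), Runx1 0.01 (SE 0.26) and Klf4 -0.10 (SE 0.82), all with adjusted p of 0.830 or more. Before the library median was subtracted, Cebpb, Cebpd and Runx1 were lower in YBX1-/- at each of the 5 time points from 0 to 6 h; this was so for 34.9% of tested genes, close to 3 of 9.

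**Figure D3:**
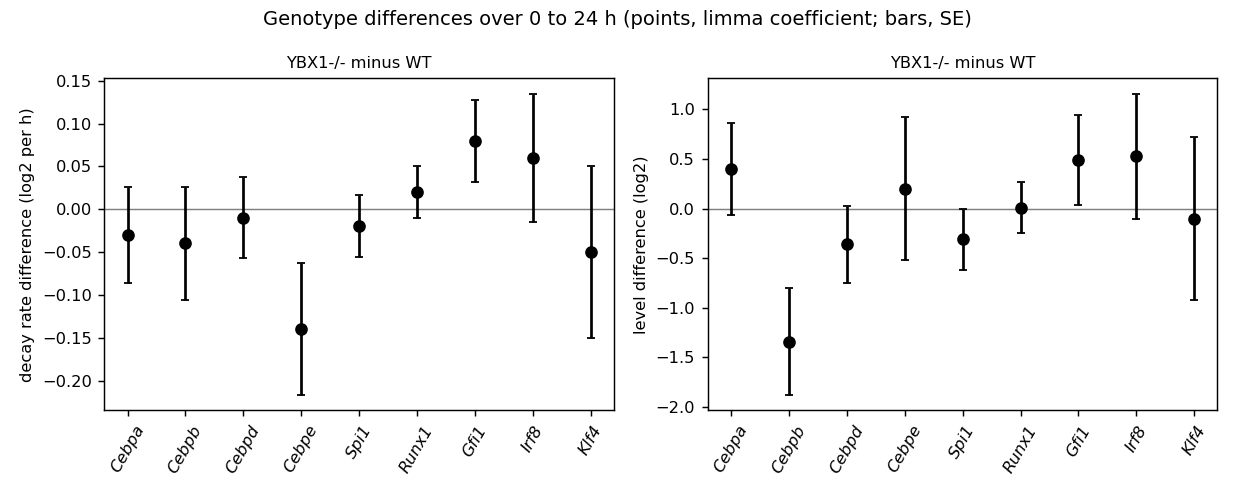
Decay rate difference (left, log2 per h) and level difference (right, log2) of the 9 transcripts, YBX1-/- minus WT over 0 to 24 h; points are limma coefficients and bars their SE. Cebpb has the lowest level difference, -1.34, and no gene passed after adjustment.

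Related regulators also lost label early, while genes that these factors are known to control kept more of it. Of 35 relatives and partners from the C/EBP, ETS, RUNX, IRF, KLF and GFI families 24 were tested, and their slope over 0 to 6 h was steeper than the median of tested genes for 22 in YBX1-/- and 19 in WT, with 8.66% and 16.5% of label left at 6 h (list medians). Cbfb, the partner of RUNX1, kept 16.9% in YBX1-/- and 17.0% in WT, and Cebpg, a C/EBP protein without an activation domain, kept 5.74% and 10.8%. Of 32 other lineage factors 20 were tested, 17 in YBX1-/- and 15 in WT were steeper, and 9.16% and 19.7% was left. Myb kept 9.28% in YBX1-/- and 14.2% in WT.

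The 24 myeloid genes known to be bound or driven by C/EBP, PU.1 or RUNX1, granule proteins and receptors among them, kept a median of 54.5% of their label at 6 h in YBX1-/- and 57.0% in WT, and 3 and 2 of the 24 were steeper than the median. Elane, neutrophil elastase, kept 78.0% in YBX1-/- and 91.6% in WT, and Lyz2, lysozyme, kept 56.7% and 69.4%. For Mpo the value was 132% in YBX1-/- and 201% in WT, so its rate at 6 h exceeded its mean of 0 to 1 h. Such a value cannot be read as a share of label kept. Csf1r, the M-CSF receptor, kept 28.7% in YBX1-/- and 32.7% in WT. Lower values were found for Il6ra, with 9.83% and 14%, and Ncf1, with 6.99% and 19.6%.

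No gene of these 3 lists passed for the decay rate or for the level (limma). In the decay rate the smallest p were those of Gabpa among relatives (-0.08 log2 per h, SE 0.018, adjusted p = 0.147), Lyl1 among other lineage factors (-0.17, SE 0.048, adjusted p = 0.186) and Cd14 among target genes (0.21, SE 0.041, adjusted p = 0.112). The list medians were -0.01, 0.01 and -0.01 log2 per h, against 0.00 over tested genes. In the level the medians were -0.23, 0.27 and 0.10 log2, against 0.01.

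**Figure D4:**
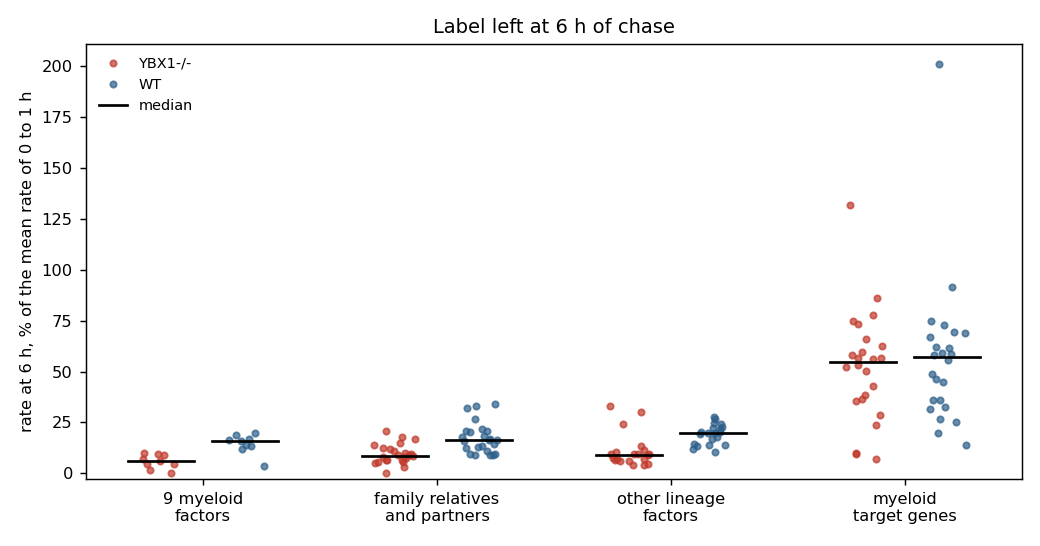
Rate at 6 h as a percent of the mean rate of 0 to 1 h for tested genes of 4 groups; each point is 1 gene, red (left) for YBX1-/- and blue (right) for WT, and bars are medians. The 9 factors have medians of 5.95% in YBX1-/- and 15.9% in WT, and the target genes 54.5% and 57.0%.

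The genes whose relative rates followed each factor most closely over the 16 libraries were, for Cebpa, Srpr (Pearson r = 0.93) and Cry1 (0.90), and for Cebpb, Esf1 (0.94) and Spast (0.93). They were Bmp2k (0.87) and Ticam2 (0.77) for Cebpd, Ctdsp2 (0.89) and Rcl1 (0.86) for Cebpe, and Ykt6 (0.82) and Trim59 (0.70) for Spi1. For Runx1 they were Chmp1b (0.84) and Taok2 (0.80), for Gfi1 Igf1r (0.88) and Pbk (0.87), for Irf8 Fam91a1 and Hipk3 (0.83 each) and for Klf4 Secisbp2l (0.91) and Tapt1 (0.90). Among the 9 themselves the closest pair was Cebpb and Cebpd (r = 0.67) and the least alike Runx1 and Cebpe (r = -0.64). These are descriptions over 16 libraries that share their depth and their rates of 0, and the genes named for each factor were picked as the highest of the candidates.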

How the data were processed

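After the 4sU label and the uridine chase, RNA was taken in TRIzol and polyA RNA was made into NEBNext libraries, per the labels' protocols. CASAVA and HISAT2 2.1.0 and the build GRCh38 are named in the submitters' processing notes; no source used here names the program behind the rates. The deposited table gives a T-to-C rate per interval and library as a fraction, which the authors did not describe as a share of reads or of covered Ts. It also gives the authors' mean CPM and mean coverage signal on Ts over all libraries, so depth per library is unknown and limits precision by an unknown amount. The identifiers were mouse, and in 7396 of 7411 tested intervals that lay within 1 exon of a GENCODE M21 transcript the number of Ts was the deposited one in 100.0%, so coordinates are GRCm38, counted from 1.

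Rates were turned into percent and analysed as log2(rate + 0.1 percentage points), which shrinks differences near 0. Genes with a rate above 0 in at least 12 of 16 libraries were tested with limma 3.58.1 (R 4.3.3) with a trend and Benjamini-Hochberg adjustment over all 7411 at 0.05. Label loss was a line over hours per genotype, fitted to both genotypes together, so that each gene had 1 estimate of spread for both. The decay rate difference (genotype by hours) and the level difference (genotype) used values minus the library median, with time point as a factor. With 1 library per genotype and time point, p-values measure scatter between time points, not between animals. Floor curves were fitted with scipy 1.17.1. The fits were tested on simulated data.

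The 9 genes, the lists, tests and alternatives were chosen with earlier results of these data known, and the miR-155 motif and the alternatives to the early slope count after the data were seen. Genes named are the 9, for each the 2 candidates with the highest r, and genes of the lists with the smallest p. Others of the lists (Cbfb, Cebpg, Myb, Elane, Lyz2, Mpo, Csf1r, Il6ra, Ncf1) were chosen after their values were seen. The planned comparison of C/EBP proteins is not reported here.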

Additional observations from a re-analysis of the deposited data

How the results depend on the processing

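The labels give no replicate numbers. The decay and level comparisons were paired by time point, and without that pairing 13 genes in place of 8 passed for the decay rate. The label loss of the 9 kept its direction under the alternatives tried except where the library median was subtracted, which removes the loss common to all genes. Then 193 genes and 0 of the 9 passed in YBX1-/-, with Cebpb at 0.06, Cebpd, Cebpe and Irf8 at 0.01 each and Spi1 at 0.00 log2 per h, and 373 genes and 0 of the 9 in WT, with Cebpb at 0.09, Cebpd and Spi1 at 0.02 each and Cebpe at 0.15. A filter on rates above 0 in all 16 libraries left 2805 genes passing in each genotype and 4 of the 9, since fewer genes are tested. With a pseudocount of 0.01, 7 of the 9 passed in YBX1-/- and 7 in WT. Apart from the subtracted median, Cebpb missed the threshold in 6 alternatives in YBX1-/- and 9 in WT, Cebpe in 1 in YBX1-/-, and Klf4 in 1 in YBX1-/- and 2 in WT.

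For the decay rate difference 1 gene passed with a pseudocount of 0.01 or 0.5 or a filter of 8 libraries, 2 with the longest interval, and 0 with no filter, without the limma trend, over 0 to 6 h or without the YBX1-/- 0 h library. Over 0 to 12 h it was 268 genes and 1 of the 9. Leaving out each time point gave 0 to 204 genes and 0 to 1 of the 9. Values that changed sign were 0.02 for Cebpa with a pseudocount of 0.01, -0.03 for Runx1 with no filter, 0.27 for Cebpe, -0.03 for Runx1 and 0.07 for Klf4 over 0 to 12 h, 0.03 for Cebpe, 0.00 for Spi1, -0.07 for Runx1 and -0.13 for Irf8 over 0 to 6 h, and 0.01 for Cebpd and 0.00 for Spi1 without centring. With each time point left out, Runx1 ranged from -0.01 to 0.05, Klf4 from -0.12 to 0.01, Cebpa from -0.09 to 0.09 and Cebpd from -0.05 to 0.04.

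For the level difference 3 genes passed with a filter of 8 libraries and 2 with none. Values that changed sign were -0.04 for Runx1 and 0.35 for Klf4 with a pseudocount of 0.5, -0.04 for Runx1 with a filter of 8 libraries, -0.15 for Runx1 and 0.35 for Klf4 over 0 to 12 h, -0.11 for Runx1 and -0.33 for Irf8 over 0 to 6 h, and -0.15 for Cebpe and -0.33 for Runx1 without centring. With each time point left out, Runx1 ranged from -0.18 to 0.07, Klf4 from -0.60 to 0.55 and Cebpe from -0.34 to 0.71. The cause of these changes was not tested. In all, 15 of 175 values of the 9 in the decay difference and 14 of 175 in the level difference changed sign, and none of those had passed. Unknown depth and rates near 0 from 12 h on limit what could be detected.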
